A study of Mus musculus with 9 samples.

Results

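The RNA levels of 10 genes of Wnt signalling are described across 3 zones of the mouse hypothalamus before birth, from 9 RNA-seq libraries. The genes were chosen by name from a table of 38195 gene symbols. They are the ligands Wnt5a, Wnt7a, Wnt7b and Wnt8b, the Frizzled receptors Fzd5 and Fzd8, the secreted antagonists Sfrp1 and Sfrp2, and Axin2 and Lef1, which report and carry out the transcriptional response. All samples were from E12.5 embryos of the outbred CD-1 strain. Tissue was microdissected from vibratome slices as the ventricular zone (VZ), the medial mantle zone (mMZ) and the lateral mantle zone (lMZ), with 3 libraries each. No mutation or treatment is named in the labels. Whether embryos were pooled, and whether each library had its own embryo, is not stated, so p-values measure only the spread between these libraries. The design text gives the search for genes particular to a region as the purpose.

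Wnt proteins are lipid-modified signals that leave the cell with the carrier Wls and bind Frizzled receptors on nearby cells. In the canonical branch, receptor binding with the co-receptors Lrp5 and Lrp6 stabilises β-catenin, which enters the nucleus and acts with Tcf and Lef1 factors on target genes. Secreted Frizzled-related proteins such as Sfrp1 and Sfrp2 carry a Frizzled-like domain and bind Wnts outside the cell. In the developing brain the pathway is known for its part in progenitor division and regional patterning, and the ventricular zone is the layer where progenitors divide before their daughters move out into the mantle.

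Values are FPKM, in which fragment numbers are divided by transcript length and library depth, so levels can be compared between genes. Differences are limma estimates on the log2(FPKM + 1) scale, where the change of a low gene comes out too small. A gene is called when its p-value, adjusted over all 14004 genes tested, is below 0.05. The test took genes that reached 1 FPKM in 3 or more libraries, and all 10 genes did. Wnt8b would have met that filter through the ventricular libraries alone.

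Depth differed widely. The smallest step between low values implied about 261049 fragments in VZ replicate 3 and 547728 in mMZ replicate 3, against 4423620 to 8884950 in the other 7 libraries. A single fragment on a 2 kb transcript counted for 1.92 FPKM in the first of these shallow libraries, for 0.913 FPKM in the second and for 0.0563 to 0.113 FPKM in the others. By markers lMZ stood apart from both inner zones, which overlapped: 10 neural progenitor genes summed to 980 to 2153 FPKM in VZ, 947 to 1110 in mMZ and 88.0 to 123 in lMZ, and 9 neuronal genes to 504 to 1074, 1056 to 1201 and 1457 to 1713 FPKM. VZ replicate 2 had the lowest progenitor sum (980 FPKM) and the highest neuronal sum (1074 FPKM) of its zone, both inside the mMZ ranges. Of the 10 progenitor genes, Pax6 had its highest mean in lMZ (28.8 FPKM, against 23.3 in VZ and 22.3 in mMZ). Erythroid genes also differed, with sums over 8 genes of 2292 to 2661 FPKM in VZ, 1612 to 3005 in mMZ and 318 to 692 in lMZ. Among 8 meningeal genes, Lum was listed at 0 throughout mMZ and lMZ and did not exceed 0.0555 FPKM in VZ. Col1a2 reached 5.10 FPKM in mMZ replicate 3. Summed levels of these 8 genes were at most 8.60 FPKM in any library. Those of 8 microglial genes were 14.1 to 21.8 FPKM in VZ, 12.6 to 28.4 in mMZ and 38.1 to 53.5 in lMZ. For 7 genes of the neighbouring telencephalon and thalamus they were 52.3 to 95.3, 44.9 to 103 and 9.22 to 68.8 FPKM in the same order, with Emx1 listed at 0 throughout mMZ and lMZ. The 9 hypothalamic markers summed to 361 to 415 FPKM in VZ, 446 to 612 in mMZ and 178 to 608 in lMZ, and went both ways. Nkx2-1 (means of 121, 102 and 26.0 FPKM), Dbx1, Foxd1 and Rax had a lower mean in lMZ than in VZ. Otp (70.6, 262 and 325 FPKM), Fezf1, Sim1 and Six6 had a higher one. Six3 had its highest mean in mMZ (36.7 FPKM), with 16.7 FPKM in VZ and 15.3 in lMZ, whose libraries overlapped. Nkx2-1 was present in every library and Rax was listed at 0 in all lMZ libraries.

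Between VZ and lMZ, 6 of the 10 genes passed the test (Wnt5a, Wnt7b, Wnt8b, Sfrp2, Axin2 and Lef1), and each of them was higher in VZ. Of all tested genes 19.6% passed, 10.7% higher and 8.93% lower in VZ. The median difference was 1.29 over the 10 genes and 0.05 over all tested genes. In 8 of the 10 genes every VZ library lay above every lMZ library, which held for 25.2% of all tested genes. These are bulk samples, in which fewer cells of a type and less RNA per cell cannot be told apart. The progenitor, neuronal, erythroid and microglial marker sums given above changed between the same zones, and their part in these differences was not tested.

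**Figure D1:**
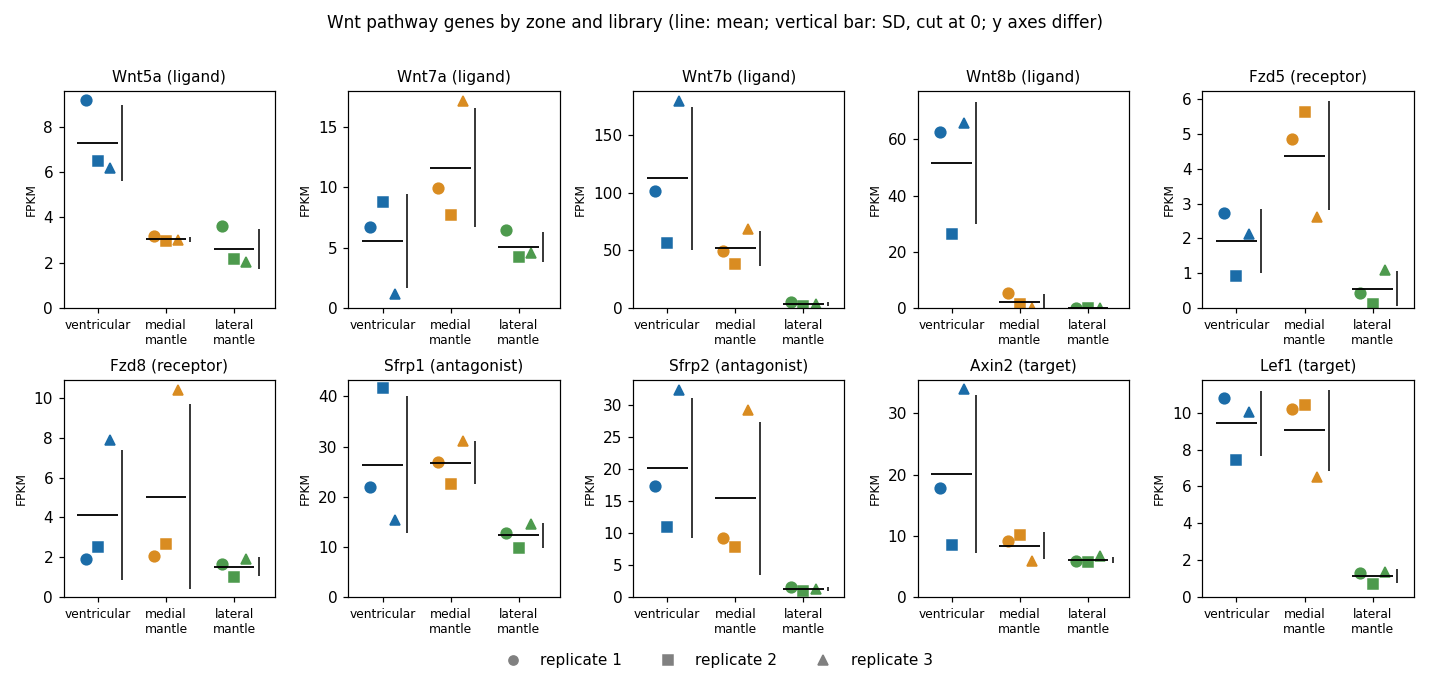
FPKM of each gene (y axis, a separate linear scale per panel) in the ventricular, medial mantle and lateral mantle zones (x axis), with 1 point per library, a horizontal line at the zone mean and a vertical bar of 1 SD to either side, drawn no lower than 0. Wnt7b, Sfrp2 and Lef1 are high in both inner zones and low in all 3 lateral libraries, Wnt8b is high in the ventricular zone (26.4 to 65.9 FPKM), and Fzd5 has its highest mean in the medial mantle zone.

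Among the ligands, Wnt7b was the most abundant in VZ and mMZ. It lies on chromosome 15 (GRCm38, 85535437 to 85582473, minus strand) and encodes a ligand that signals through β-catenin in the brain's progenitors and vessels. Wnt7b was at 102, 56.4 and 179 FPKM in VZ replicates 1 to 3, at 49.5, 37.8 and 68.3 FPKM in mMZ and at 5.13, 1.36 and 3.19 FPKM in lMZ. All 6 inner libraries were above all lateral ones, and the VZ and mMZ ranges overlapped. The zone mean of VZ was 34.9-fold that of lMZ, with a log2 difference of 4.70 ± 0.45 (SE; limma adjusted p = 0.000505), and the mean of mMZ was 16.1-fold that of lMZ (3.71 ± 0.45; adjusted p = 0.00315). The difference between VZ and mMZ was 0.99 ± 0.45 and did not pass (adjusted p = 0.425).

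Wnt8b had the largest difference between VZ and lMZ of the 10 genes. It lies on chromosome 19 (44493472 to 44514273, plus strand), and its product is a ligand made in signalling centres of the forebrain. Wnt8b was at 62.5, 26.4 and 65.9 FPKM in VZ and at 5.29 and 1.58 FPKM in mMZ replicates 1 and 2. It was listed at 0 in mMZ replicate 3 and in lMZ replicates 1 and 2, and lMZ replicate 3 had 0.0653 FPKM, about 0.975 of 1 fragment on its longest transcript. Every VZ library therefore stood above every library of the other zones. The 0 of mMZ replicate 3 allows up to 1.62 FPKM at the depth of that library (3 fragments, counting error only), which is close to the 1.58 FPKM of mMZ replicate 2. The log2 difference was 5.58 ± 0.61 between VZ and lMZ (adjusted p = 0.000798). Between VZ and mMZ it was 4.27 ± 0.61, with an unadjusted p of 4.34e-05 that did not pass after adjustment (adjusted p = 0.0759). That difference passed under 3 of 20 alternative settings, among them without VZ replicate 2 (adjusted p = 0.0111), and its adjusted p ranged up to 0.478.

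Wnt5a, on chromosome 14 (28504750 to 28527448, plus strand), encodes the ligand best known for signalling outside the β-catenin branch. It was at 9.19, 6.47 and 6.17 FPKM in VZ, at 3.17, 2.95 and 2.99 FPKM in mMZ and at 3.62, 2.16 and 2.04 FPKM in lMZ. The VZ libraries were above all 6 mantle libraries, and the mantle zones overlapped. The difference was 1.21 ± 0.28 between VZ and lMZ (adjusted p = 0.0190), 1.02 ± 0.28 between VZ and mMZ (adjusted p = 0.378) and 0.19 ± 0.28 between mMZ and lMZ (adjusted p = 0.753, 95% interval -0.44 to 0.82). The call between VZ and lMZ was lost without VZ replicate 1 (adjusted p = 0.0685), lMZ replicate 2 (0.0777) or lMZ replicate 3 (0.0744).

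Wnt7a, the close relative of Wnt7b on chromosome 6 (91363981 to 91411363, minus strand), had another distribution. It was at 6.71, 8.78 and 1.19 FPKM in VZ, at 9.99, 7.70 and 17.2 FPKM in mMZ and at 6.48, 4.22 and 4.53 FPKM in lMZ. VZ overlapped both mantle zones, and all mMZ libraries lay above all lMZ libraries. The low value of VZ replicate 3 equals about 0.987 of 1 fragment on the longest transcript, and the high value of mMZ replicate 3 equals about 29.8 fragments. None of the differences passed: -0.13 ± 0.53 between VZ and lMZ (adjusted p = 0.883, 95% interval -1.32 to 1.06), -1.13 ± 0.53 between VZ and mMZ (0.428) and 1.003 ± 0.53 between mMZ and lMZ (0.320). The first of these turned to 0.53 without VZ replicate 3 and to 0.03 without lMZ replicate 1. The second was -0.47 without VZ replicate 3 and -0.17 without both shallow libraries.

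The make-up of the ligand RNA therefore differed by zone. Wnt7b made up 56.5%, 57.5% and 71.0% of the summed FPKM of the 4 ligands in VZ, 72.9%, 75.6% and 77.2% in mMZ and 33.7%, 17.6% and 32.4% in lMZ. Wnt7a made up 42.5%, 54.5% and 46.1% in lMZ, where it led in every library. Wnt8b was the second ligand of VZ, at 26.1% to 34.7%. The summed ligand FPKM was 180, 98.1 and 253 in VZ, 67.9, 50.1 and 88.5 in mMZ and 15.2, 7.74 and 9.83 in lMZ, with no overlap between zones. The ligands share each library's depth and composition, so these shares are a description.

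**Figure D2:**
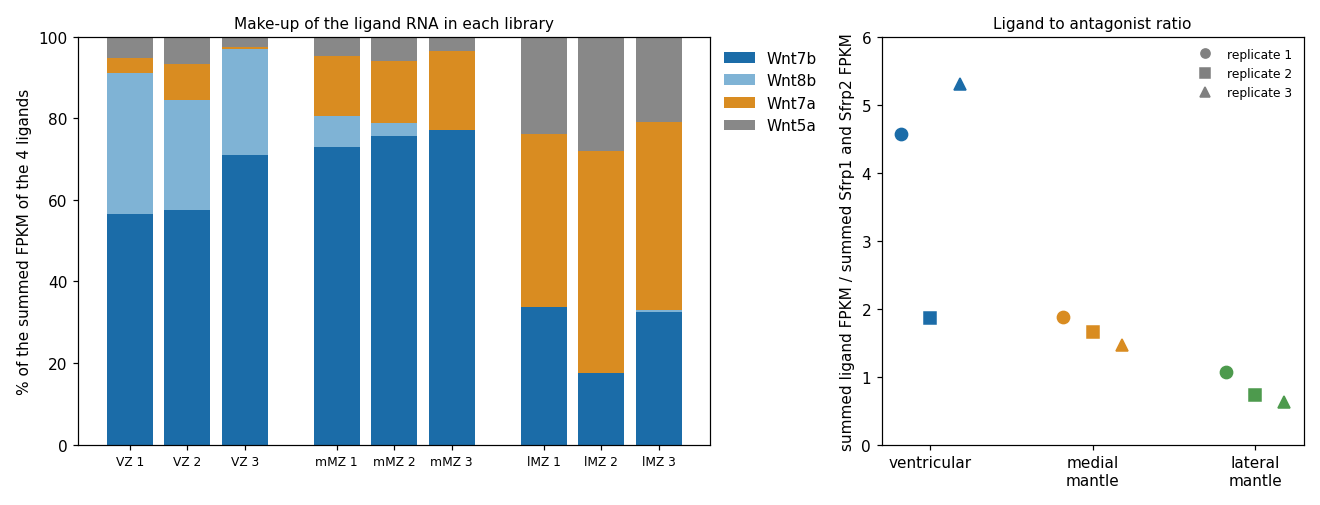
Left, share of each ligand in the summed FPKM of the 4 ligands (y axis, %) in each library (x axis; VZ, mMZ and lMZ are the ventricular, medial mantle and lateral mantle zones). Right, summed ligand FPKM divided by the summed FPKM of Sfrp1 and Sfrp2 (y axis) by zone, 1 point per library; the ratio is 1.87 to 5.30 in VZ, 1.47 to 1.88 in mMZ and 0.622 to 1.07 in lMZ.

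None of the other 15 Wnt ligands passed the filter on low values. The highest value among them was 5.68 FPKM, for Wnt9a in VZ replicate 3, with 3.58 FPKM in VZ replicate 1, 0.569 in VZ replicate 2 and 0 to 0.128 FPKM in the mantle libraries. In total 10 of these 15 ligands were below 1 FPKM in every library, among them Wnt1 (highest value 0.365 FPKM) and Wnt3a (0.0558 FPKM), and Wnt8a and Wnt9b were listed at 0 throughout.

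Fzd5 and Fzd8 were present at lower levels than the leading ligand of each zone. Fzd5, on chromosome 1 (64730558 to 64737751, minus strand), encodes a Frizzled known for its part in eye and hypothalamic development. It was at 2.72, 0.914 and 2.12 FPKM in VZ, at 4.87, 5.63 and 2.62 FPKM in mMZ and at 0.430, 0.120 and 1.10 FPKM in lMZ. The mMZ libraries lay above all lMZ libraries and overlapped those of VZ, since VZ replicate 1 exceeded mMZ replicate 3. Fzd5 was higher in mMZ than in lMZ by 1.79 ± 0.39 (adjusted p = 0.0354). The differences of 0.91 ± 0.39 between VZ and lMZ (0.129) and of -0.89 ± 0.39 between VZ and mMZ (0.420) did not pass. The call was lost without mMZ replicate 1 (adjusted p = 0.113) or 2 (0.132), without any single lMZ library (0.0586 to 0.170), and with a pseudocount of 0.1 (0.0577). Fzd5 rested on few fragments in the shallow libraries, about 3.83 in VZ replicate 3 and 9.93 in mMZ replicate 3.

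Fzd8, on chromosome 18 (9212163 to 9218136, plus strand), encodes a Frizzled of the same subfamily as Fzd5. It was at 1.93, 2.52 and 7.89 FPKM in VZ, at 2.03, 2.68 and 10.4 FPKM in mMZ and at 1.65, 1.01 and 1.91 FPKM in lMZ. The highest values of VZ and mMZ are those of the shallow libraries, which rest on about 12.3 and 34.0 fragments. Every VZ and every mMZ library was nonetheless above every lMZ library, although VZ replicate 1 (1.929 FPKM) barely exceeded lMZ replicate 3 (1.912 FPKM). No difference passed, at 0.86 ± 0.56 between VZ and lMZ (adjusted p = 0.302, 95% interval -0.41 to 2.12), -0.16 ± 0.56 between VZ and mMZ (0.926) and 1.01 ± 0.56 between mMZ and lMZ (0.341). The first was 0.37 without VZ replicate 3 and the last 0.42 without mMZ replicate 3. The sign between VZ and mMZ turned without VZ replicate 1 (0.15), VZ replicate 2 (0.02) or mMZ replicate 3 (0.43).

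The antagonists differed from each other in how far they extended laterally. Sfrp1, on chromosome 8 (23411502 to 23449632, plus strand), was at 22.0, 41.6 and 15.3 FPKM in VZ, at 26.8, 22.5 and 31.0 FPKM in mMZ and at 12.7, 9.67 and 14.5 FPKM in lMZ. Both inner zones lay above lMZ without overlap, although VZ replicate 3 exceeded lMZ replicate 3 by little. The differences of 0.94 ± 0.33 between VZ and lMZ (adjusted p = 0.0716) and 1.07 ± 0.33 between mMZ and lMZ (0.107) did not pass. Without VZ replicate 3, which holds about 17.5 Sfrp1 fragments, both passed (adjusted p = 0.0204 and 0.0293). Without VZ replicate 2, the highest, the difference between VZ and lMZ was 0.56 (adjusted p = 0.130). The difference between mMZ and lMZ also passed without VZ replicate 2 (0.0303) and with only the compared zones in the fit (0.0145). Of 20 alternative settings it passed under 4, with an adjusted p of up to 0.350. The difference between VZ and lMZ passed under 3, with an adjusted p of up to 0.213.

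Sfrp2, on chromosome 3 (83766321 to 83774316, plus strand), had a steeper profile. It was at 17.4, 10.95 and 32.3 FPKM in VZ, at 9.30, 7.82 and 29.2 FPKM in mMZ and at 1.58, 0.946 and 1.26 FPKM in lMZ. All 6 inner libraries were above all lateral ones, and the shallow libraries were again the highest of their zones. Sfrp2 was 16.0-fold higher in VZ than in lMZ by zone means (3.11 ± 0.50; adjusted p = 0.00422) and 12.3-fold higher in mMZ than in lMZ (2.64 ± 0.50; adjusted p = 0.0193). Without mMZ replicate 3, where Sfrp2 rests on about 32.1 fragments, the second fold was 6.79. The difference of 0.47 ± 0.50 between VZ and mMZ did not pass (adjusted p = 0.706). The call between mMZ and lMZ was lost without any single lMZ library (adjusted p = 0.0655, 0.0904 and 0.0655 without replicates 1, 2 and 3).

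Sfrp1 made up 55.9%, 79.2% and 32.2% of the summed FPKM of Sfrp1 and Sfrp2 in VZ, 74.3%, 74.2% and 51.5% in mMZ and 88.9%, 91.1% and 92.0% in lMZ. It was therefore the higher of these 2 in every library except VZ replicate 3. Other antagonists are not in these sums. Among them Apcdd1 was at 31.5, 25.6 and 37.5 FPKM in VZ and at 23.4, 18.2 and 10.1 FPKM in mMZ. In lMZ it was at 15.6, 5.59 and 15.8 FPKM, above Sfrp1 in replicates 1 and 3. The ratio of summed ligand FPKM to summed Sfrp1 and Sfrp2 FPKM was 4.57, 1.87 and 5.30 in VZ, 1.88, 1.65 and 1.47 in mMZ and 1.07, 0.729 and 0.622 in lMZ. The lMZ libraries were the lowest, and VZ replicate 2 fell among the mMZ libraries.

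Lef1 and Axin2 had different profiles. Lef1, on chromosome 3 (131110471 to 131224356, plus strand), encodes a DNA-binding partner of β-catenin. It was at 10.8, 7.44 and 10.1 FPKM in VZ, at 10.2, 10.4 and 6.52 FPKM in mMZ and at 1.32, 0.700 and 1.38 FPKM in lMZ. VZ and mMZ overlapped, and all their libraries were above all lMZ libraries. Lef1 was higher than in lMZ by 2.29 ± 0.29 in VZ (adjusted p = 0.00147) and by 2.23 ± 0.29 in mMZ (adjusted p = 0.00413), which are 8.31-fold and 7.97-fold by zone means. It differed by 0.06 ± 0.29 between VZ and mMZ (adjusted p = 0.943, 95% interval -0.59 to 0.71).

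Axin2, on chromosome 11 (108920349 to 108950783, plus strand), encodes a scaffold of the complex that degrades β-catenin and is a widely used target gene of the pathway. It was at 17.9, 8.43 and 34.0 FPKM in VZ, at 9.09, 10.2 and 5.85 FPKM in mMZ and at 5.86, 5.71 and 6.64 FPKM in lMZ. The VZ libraries lay above those of lMZ, while VZ replicate 2 fell within the mMZ range and mMZ replicate 3 within the lMZ range. The difference of 1.38 ± 0.42 between VZ and lMZ passed narrowly (adjusted p = 0.0472). It was lost without VZ replicate 1 (0.108), VZ replicate 3 (0.0863, with a difference of 0.92), mMZ replicate 1 (0.0688) or 2 (0.0669), or lMZ replicate 1 (0.128), 2 (0.130) or 3 (0.104). It was also lost with the replicate number as a block (0.0594) and with quantile (0.0573) or trimmed mean scaling (0.0526). The differences of 1.005 ± 0.42 between VZ and mMZ (0.409) and 0.38 ± 0.42 between mMZ and lMZ (0.662) did not pass. The first passed under 2 of 20 alternative settings, among them without VZ replicate 2 (0.0442).

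Endothelial cells also transcribe Axin2 and Lef1, and 10 endothelial markers summed to 25.5, 59.7 and 5.99 FPKM in VZ, 73.6, 52.1 and 24.3 in mMZ and 48.8, 17.3 and 56.0 in lMZ. VZ replicate 3 had the lowest endothelial sum of the 9 libraries. In that library 8 of the 10 markers, among them Pecam1 and Cdh5, were listed at 0. It is the shallowest library, where 1 fragment on a 2 kb transcript counts for 1.92 FPKM, so genes of a few FPKM can be listed at 0. The part of endothelial RNA in the Axin2 and Lef1 values was not tested.

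Wnt8b was high in VZ and Lef1 in both inner zones. Axin2 was at least 5.71 FPKM in every library and was called higher in VZ than in lMZ. The upstream sequences of these 3 genes are shown because their zonal profiles differ. Each is the 250 bases before the annotated start, from RefSeq on GRCm38.p6, plus strand, written 5′ to 3′; the capitals mark the 5-letter core CTTTG of the Tcf and Lef1 binding motif. For Lef1, which has 4 starts in the table, the most upstream start was used.
Wnt8b, chr19:44493222-44493471: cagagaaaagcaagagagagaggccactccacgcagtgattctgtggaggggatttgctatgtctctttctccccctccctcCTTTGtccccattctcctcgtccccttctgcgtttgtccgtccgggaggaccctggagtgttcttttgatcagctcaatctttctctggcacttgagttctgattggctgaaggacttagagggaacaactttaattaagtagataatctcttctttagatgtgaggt
Lef1, chr3:131110047-131110296: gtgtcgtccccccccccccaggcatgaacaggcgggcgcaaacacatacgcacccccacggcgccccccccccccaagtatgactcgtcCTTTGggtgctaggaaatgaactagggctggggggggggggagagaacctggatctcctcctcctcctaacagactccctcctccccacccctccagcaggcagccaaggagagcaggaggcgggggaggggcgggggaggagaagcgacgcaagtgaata
Axin2, chr11:108920099-108920348: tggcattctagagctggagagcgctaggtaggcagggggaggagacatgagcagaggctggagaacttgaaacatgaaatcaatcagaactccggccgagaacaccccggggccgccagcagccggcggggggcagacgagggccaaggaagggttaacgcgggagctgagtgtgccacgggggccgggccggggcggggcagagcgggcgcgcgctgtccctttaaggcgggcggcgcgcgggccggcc

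The longer forms CTTTGAT and CTTTGAA, searched on both strands, were in none of these windows, and in 3.21% and 4.46% of all 32851 windows of this length. The core CTTTG or its reverse complement CAAAG occurs once in the Wnt8b window and once in the Lef1 window, and in 48.6% of all windows. It was absent from the Axin2 window and from those of Fzd5, Sfrp2 and Wnt7a. No window was available for Wnt5a, Wnt7b, Fzd8 and Sfrp1. A match is a description of letters and not a bound site. G and C made up 48.4% of the Wnt8b window, 66.4% of the Lef1 window and 69.2% of the Axin2 window, against a median of 52.4% over all windows.

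Between mMZ and lMZ, 4 of the 10 genes passed (Wnt7b, Fzd5, Sfrp2 and Lef1), all higher in mMZ, where 4.12% of all tested genes passed, 3.58% higher and 0.543% lower. The libraries did not overlap, with mMZ above, in 7 of the 10 genes, and in 25.7% of all tested genes. The median difference was 1.19 over the 10 genes and 0.10 over all tested genes. Wnt7b and Lef1 passed under every one of the 20 alternative settings, and Sfrp2 under 17.

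Between VZ and mMZ, none of the 10 genes passed. By limma 0% of all tested genes were called in this comparison; 4 of the 10 genes (Wnt5a, Wnt8b, Fzd5 and Axin2) and 11.9% of all tested genes had an unadjusted p below 0.05. In 2 of the 10, Wnt5a and Wnt8b, the VZ libraries were all above the mMZ libraries, against 5.36% of all tested genes. Without both shallow libraries the count was still 0 of the 10 genes and 0 of all tested genes, and without VZ replicate 2 it was 2 of the 10 genes (Wnt8b and Axin2) and 566 of all tested genes. A test of mMZ against the mean of VZ and lMZ, which is also large for a gene that is alike in VZ and mMZ and low in lMZ, called none of the 10 and 0.0428% of all tested genes. The lowest unadjusted p-values among the 10 were those of Lef1 (1.08 ± 0.25; adjusted p = 0.292) and Fzd5 (1.34 ± 0.34; adjusted p = 0.336), and 6 of the 10 genes and 7.80% of all genes were below an unadjusted 0.05.

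**Figure D3:**
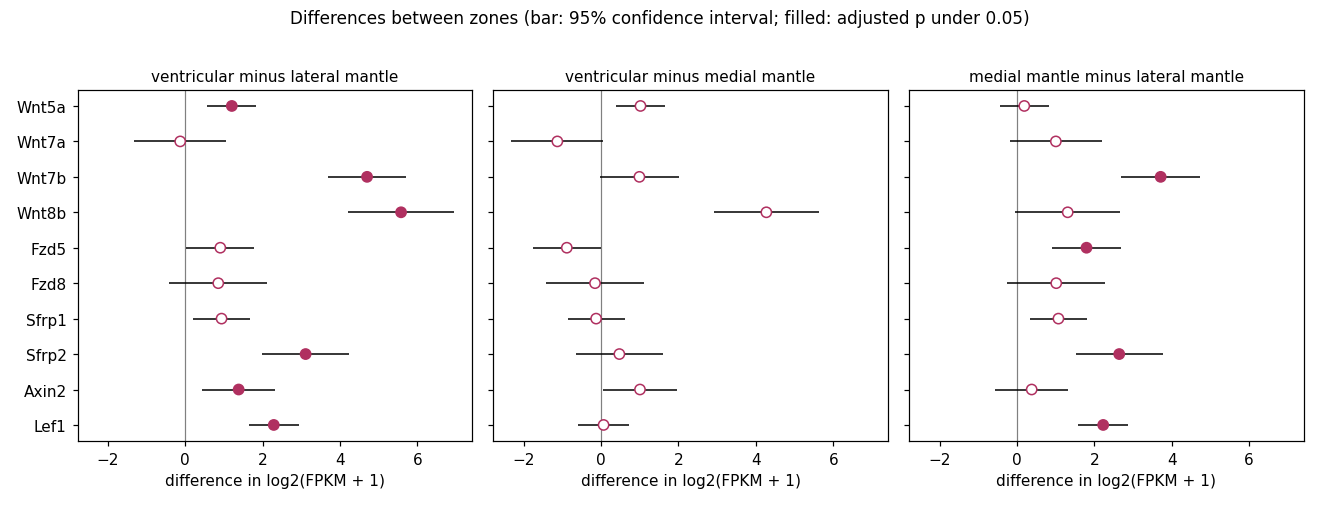
Differences in log2(FPKM + 1) between zones (x axis) for the 10 genes (y axis), with 95% confidence intervals that are not adjusted for the number of genes; filled points passed at an adjusted p below 0.05. In the ventricular minus lateral panel 6 points are filled, in the medial minus lateral panel 4, and in the ventricular minus medial panel none.

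Within a zone, few neighbours in the order of levels were separated. In VZ the order of means ran from Wnt7b (113 ± 62.2 FPKM; SD, n = 3) and Wnt8b (51.6 ± 21.9) through Sfrp1, Sfrp2, Axin2, Lef1, Wnt5a, Wnt7a and Fzd8 to Fzd5 (1.92 ± 0.922), and every gene overlapped the next. In mMZ, Wnt7b (51.9 ± 15.4 FPKM) stood above Sfrp1 (26.8 ± 4.25) without overlap, and the lower 9 genes each overlapped the next, ending with Wnt8b (2.29 ± 2.71). In lMZ, Sfrp1 (12.3 ± 2.46 FPKM) stood above Axin2 (6.07 ± 0.502), then came Wnt7a, Wnt7b and Wnt5a (2.61 ± 0.881). A gap separated these from Fzd8 (1.52 ± 0.466), followed by Sfrp2, Lef1 and Fzd5, and Wnt8b was last. Among all tested genes, Wnt7b was at percentile 96.1 of the VZ means and 26.3 of the lMZ means.

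The genes closest in pattern were found among well-expressed genes by the root mean square difference of centred log2(FPKM + 1) values over the 9 libraries. This is a description, since the libraries share depth and composition. The closest to Wnt7b were Ccnb1 (0.239), Lfng (0.258) and Cdc20 (0.345), which are a mitotic cyclin, a glycosyltransferase acting on Notch receptors and an activator of the anaphase-promoting complex. Those to Sfrp2 were the mitotic genes Nuf2 (0.208), Ncaph (0.224) and Ckap2 (0.230). For Lef1 they were Gpsm2 (0.283), a spindle orientation protein, the Hedgehog receptor Ptch1 (0.299) and the adult globin Hba-a2 (0.304), whose own means were 478 FPKM in VZ, 433 in mMZ and 131 in lMZ.

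Wnt8b was closest to Otx2 (0.494), a homeobox gene of the forebrain and midbrain, with the next genes, Col2a1 (1.09) and Pdpn (1.10), much farther away. Otx2 was at 32.3, 12.503 and 43.3 FPKM in VZ, at 4.92 and 1.96 FPKM in mMZ replicates 1 and 2 and listed at 0 in mMZ replicate 3. In lMZ it was listed at 0 in replicates 1 and 3 and at 0.465 FPKM in replicate 2. Otx2 was 1 of 6 choroid plexus and roof plate markers, which summed to 76.2, 30.0 and 148 FPKM in VZ, 8.58, 12.8 and 0.704 in mMZ and 6.14, 28.5 and 1.92 in lMZ. Msx1 was at 6.78, 1.27 and 28.6 FPKM in VZ and did not exceed 0.339 FPKM in the mantle libraries, and Folr1 was at 2.89, 2.04 and 5.44 FPKM in VZ and did not exceed 0.840 FPKM in them. Lmx1a was at 33.9, 14.2 and 70.7 FPKM in VZ, at 2.97, 10.3 and 0 FPKM in mMZ and at 5.86, 27.1 and 1.25 FPKM in lMZ. Ttr, which defines the choroid plexus, did not exceed 0.308 FPKM in any library, and Kl did not exceed 0.704 FPKM. The part of roof plate tissue in the Wnt8b values was not tested.

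The closest genes to Axin2 were Elk4 (0.0959), Mpdz (0.188) and Mks1 (0.216), and those to Wnt5a were Nrn1 (0.209), Lrrn1 (0.227) and Cad (0.266). Those close to Sfrp1 included Rgmb (0.257) and Ankrd40 (0.269), and the closest to Fzd5 were Sox13 (0.348), Snapc5 (0.384) and Dlx2 (0.409). For Wnt7a they were Adal, Lrif1 and Ccdc40 (0.308 to 0.313), and for Fzd8 Lrrc56, Mettl5 and Gpr89 (0.225 to 0.240). Within the 10 genes, the closest pair was Wnt5a and Axin2 (0.545) and the farthest was Wnt7a and Wnt8b (2.87).

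The rest of the pathway was described from lists of 111 further genes in 8 roles, of which 73 were tested. Between VZ and lMZ, 22 of these 73 were higher and 2 lower, against 10.7% and 8.93% of all tested genes, with a median difference of 0.28. Between mMZ and lMZ, 10 were higher and 0 lower, against 3.58% and 0.543% of all tested genes, and between VZ and mMZ 0 passed. A few genes stand in more than 1 role.

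Of 13 tested receptors and co-receptors, 6 were higher in VZ than in lMZ and 4 in mMZ than in lMZ, where 10.7% and 3.58% of all tested genes were. The Frizzled gene Fzd2 was at 22.6, 17.4 and 34.2 FPKM in VZ, at 15.7, 14.9 and 13.6 in mMZ and at 0.319, 0.308 and 1.33 in lMZ, with differences of 3.96 ± 0.32 between VZ and lMZ (adjusted p = 0.00032) and 3.30 ± 0.32 between mMZ and lMZ (0.00146). All 6 inner libraries lay far above the lateral ones. Fzd7 averaged 9.53 ± 3.75 FPKM in VZ, 8.50 ± 3.39 in mMZ and 0.417 ± 0.364 in lMZ, and Fzd9 6.82 ± 0.893, 4.55 ± 2.28 and 0.608 ± 0.293 FPKM. Both were higher in VZ and in mMZ than in lMZ, although the Fzd9 call between mMZ and lMZ was lost without any single lMZ library (adjusted p = 0.0724 to 0.115) or without mMZ replicate 1 (0.0868) or 2 (0.0931). Fzd3 (1.57 ± 0.49; adjusted p = 0.0511) and the receptor kinase Ryk (0.71 ± 0.29; 0.112) did not pass between VZ and lMZ, and Fzd3 passed without VZ replicate 2 (2.06; 0.00964), without VZ replicate 3 (0.90; 0.0485) and with the replicate number as a block (0.0300). Fzd3 averaged 42.5 ± 37.2 FPKM in VZ, 22.8 ± 6.52 in mMZ and 10.6 ± 1.39 in lMZ. Ryk averaged 31.2 ± 15.3, 26.2 ± 4.14 and 17.4 ± 1.53 FPKM. Fzd2, Fzd3 and Ryk each had a higher mean than Fzd5 or Fzd8 in both VZ and mMZ.

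Of 8 tested antagonists other than Sfrp1 and Sfrp2, 4 were higher in VZ than in lMZ, against 10.7% of all tested genes. Dkk3, of the Dickkopf family, averaged 10.2 ± 4.27 FPKM in VZ, 8.34 ± 0.938 in mMZ and 1.27 ± 0.745 in lMZ (2.29 ± 0.36 between VZ and lMZ; adjusted p = 0.00354). It was the 1 antagonist called between mMZ and lMZ (2.09 ± 0.36; adjusted p = 0.0114), a call lost without mMZ replicate 2 (0.0561) or lMZ replicate 2 (0.0544). Kremen1, a co-receptor for Dickkopf proteins, and Znrf3, a ligase that removes Frizzled from the surface, passed at adjusted p = 0.0225 and 0.0439. Znrf3 (1.46 ± 0.44, and 0.97 without VZ replicate 3) lost its call without any single library except VZ replicate 2 (adjusted p = 0.0521 to 0.131), and Kremen1 without VZ replicate 1 (0.0762) or lMZ replicate 1 (0.0669), 2 (0.0914) or 3 (0.0526). The secreted guidance protein Draxin (-0.33 ± 0.25; adjusted p = 0.369) and Shisa2 (0.14 ± 0.40; 0.825) did not pass.

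Of 5 tested genes for ligand release and amplification, 1 was higher in VZ than in lMZ, against 10.7% of all tested genes. Wls, the carrier that releases Wnts, was at 26.0, 12.4 and 34.3 FPKM in VZ, at 5.97, 2.63 and 2.22 in mMZ and at 4.18, 3.66 and 4.41 in lMZ. Every VZ library was above every mantle library, and the difference between VZ and lMZ was 2.21 ± 0.41 (adjusted p = 0.00718). The Wls difference of 2.43 ± 0.41 between VZ and mMZ did not pass (adjusted p = 0.153). Rspo2, a secreted amplifier of Wnt signalling, was at 31.5, 9.36 and 61.3 FPKM in VZ, at 2.35 and 7.37 FPKM in mMZ replicates 1 and 2 with replicate 3 listed at 0, and at 2.14, 10.3 and 0.730 FPKM in lMZ. It did not pass between VZ and lMZ (2.81 ± 0.94; adjusted p = 0.0621). It did pass without VZ replicate 2 (0.0258), without mMZ replicate 3 (0.0462) and with array weights (0.00314), and lMZ replicate 2 overlapped the VZ range. Porcn, the enzyme that attaches the lipid to Wnts, was at 20.2 ± 7.76 FPKM in VZ and 28.9 ± 3.19 FPKM in lMZ (-0.56 ± 0.31; adjusted p = 0.227).

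Of 18 cytoplasmic transducers, 2 were higher in VZ than in lMZ, a share near the 10.7% of all tested genes, and 0 were called between mMZ and lMZ. β-catenin itself, Ctnnb1, averaged 359 ± 130 FPKM in VZ, 352 ± 42.7 in mMZ and 185 ± 50.2 in lMZ (0.93 ± 0.27 between VZ and lMZ; adjusted p = 0.0380), and Dvl3, a Dishevelled protein that relays the receptor signal, 80.4 ± 2.65, 69.0 ± 10.05 and 52.8 ± 4.41 FPKM (0.60 ± 0.15; 0.0242). The Ctnnb1 call was lost without VZ replicate 1 (0.0618) or 3 (0.0749), mMZ replicate 1 (0.0584) or 2 (0.0555), or lMZ replicate 1 (0.106) or 2 (0.138). The Dvl3 call was lost without VZ replicate 1 (0.0680) or lMZ replicate 1 (0.101), 2 (0.0668) or 3 (0.0672). The kinase Csnk1e (-0.20 ± 0.18; 0.458) and Apc2 (-0.39 ± 0.18; 0.149) did not pass.

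Of 7 further Tcf factors and Groucho co-repressors, 2 (Tcf7l1 and Tle3) were higher in VZ and in mMZ than in lMZ, against 10.7% and 3.58% of all tested genes. Tcf7l1, which represses targets in the absence of β-catenin, averaged 8.77 ± 3.49 FPKM in VZ, 7.81 ± 2.32 in mMZ and 0.322 ± 0.257 in lMZ, with differences of 2.83 ± 0.36 (adjusted p = 0.00149) between VZ and lMZ and 2.72 ± 0.36 (0.00435) between mMZ and lMZ. Tle3 averaged 62.6 ± 19.2, 57.4 ± 17.2 and 21.6 ± 4.98 FPKM. Its call between VZ and lMZ (adjusted p = 0.00908) was kept without each library in turn, and that between mMZ and lMZ (0.0298) was lost without any library except VZ replicates 2 and 3 (0.0509 to 0.139). Tle4 (-1.21 ± 0.44; 0.0829) and Tle1 (-0.15 ± 0.20; 0.607) did not pass between VZ and lMZ, and Tle4 passed without VZ replicate 2 (0.00312).

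Of 12 tested feedback and target genes besides Axin2 and Lef1, 5 were higher in VZ than in lMZ and 2 in mMZ than in lMZ, against 10.7% and 3.58% of all tested genes. Sp5, a transcription factor induced by Wnt signals, averaged 7.53 ± 4.94 FPKM in VZ, 5.59 ± 2.20 in mMZ and 0.179 ± 0.132 in lMZ (2.70 ± 0.44 between VZ and lMZ; adjusted p = 0.00440). The cyclin gene Ccnd1 averaged 110 ± 64.6, 61.5 ± 25.3 and 12.001 ± 2.72 FPKM (2.97 ± 0.39; 0.00168), and Tnfrsf19 13.8 ± 4.28, 3.71 ± 0.532 and 1.55 ± 0.656 FPKM (2.53 ± 0.32; 0.00147). Between mMZ and lMZ, Sp5 (2.44 ± 0.44; 0.0150) and Ccnd1 (2.21 ± 0.39; 0.0137) passed. These calls were lost without mMZ replicate 2 (0.0709 for Sp5 and 0.0513 for Ccnd1), lMZ replicate 1 (0.0681 and 0.0651) or lMZ replicate 2 (0.0756 and 0.0726), that of Sp5 also without mMZ replicate 1 (0.0544) and that of Ccnd1 without mMZ replicate 3 (0.0574). Mycn (0.58 ± 0.21; 0.0804) and Id2 (0.09 ± 0.26; 0.817) did not pass between VZ and lMZ.

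Genes of planar polarity, the branch that orients cells in a sheet, went both ways between VZ and lMZ, with 3 of 12 higher and 2 lower, against 10.7% and 8.93% of all tested genes. Celsr1, a polarity cadherin, averaged 11.2 ± 4.70 FPKM in VZ, 2.84 ± 0.803 in mMZ and 0.200 ± 0.0699 in lMZ (3.25 ± 0.37; adjusted p = 0.000856). Daam2, a formin that binds Dishevelled, was also higher in VZ (2.51 ± 0.46; 0.00694). Dact1, which binds Dishevelled, was lower in VZ, at 9.54 ± 9.84 FPKM against 30.0 ± 6.81 FPKM in lMZ (-2.03 ± 0.61; 0.0446), a call lost without any single library except VZ replicate 2 (0.0577 to 0.136), with a difference of -1.26 without VZ replicate 3. Celsr1 was also higher in mMZ than in lMZ (1.66 ± 0.37; 0.0364), which was lost without any single library except VZ replicates 2 and 3 (0.0533 to 0.149). Vangl2 (0.53 ± 0.21; 0.09999) and Scrib (0.34 ± 0.21; 0.276) did not pass between VZ and lMZ, and Vangl2 passed without VZ replicate 3 (0.00925).

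**Figure D4:**
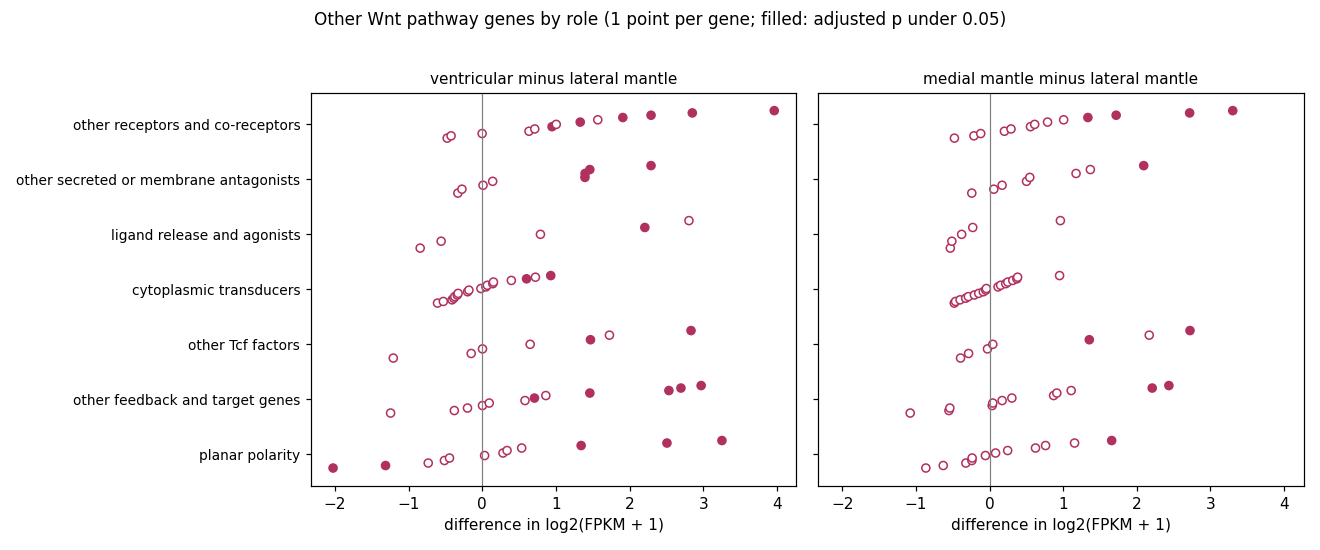
Differences in log2(FPKM + 1) (x axis) for the tested Wnt pathway genes other than the 10, by role (y axis), for the ventricular minus lateral (left) and medial minus lateral (right) mantle comparisons; 1 point per gene, filled where the adjusted p was below 0.05. Receptors reach 3.96 on the left and 3.30 on the right, while cytoplasmic transducers stay within 1 of 0 in both.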

How the data were processed

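The authors deposited 1 FPKM value per gene and library. Bowtie2 2.1.0 and the mm10 build are named, per the submitters' processing notes; the software behind the FPKM step is not named in the sources used here. From 38370 rows, 42 identical rows and 133 rows with a repeated symbol were dropped, keeping the row with the highest mean. Genes with at least 1 FPKM in 3 of 9 libraries were fitted as log2(FPKM + 1) with limma 3.58.1 in R 4.3.3 (1 mean per zone, intensity trend, two-sided tests, Benjamini-Hochberg over all 14004 genes). The fit was also run on simulated data, and no result here rests on that run. The real libraries were not equally noisy. Typical residuals were 0.755 in VZ replicate 3, 0.552 in mMZ replicate 3 and 0.270 in lMZ replicate 1. The main fit gave every library the same weight. The simulated run is not taken as evidence that its p-values hold under such unequal noise.

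Depth was estimated from the commonest low value times transcript length in genes with 1 transcript; 60.5% to 67.7% of low values lay within 0.1 of a whole step. Fragment numbers are therefore approximate. Coordinates are from GENCODE M21 on GRCm38, the assembly called mm10. The genes, lists and rules were chosen with earlier results of these data known. For each of the 10 genes, the 3 closest in pattern with a mean of at least 5 FPKM were named, except 1 gene that is not reported here. From each role, up to 3 called genes by size of change and up to 2 others by mean level were named per comparison, the others for VZ against lMZ only. Apcdd1 was named in addition, for its level.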

Additional observations from a re-analysis of the deposited data

How the results depend on the processing

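Each comparison was refitted under 20 settings, or 19 for mMZ against the mean of the other zones. Between VZ and lMZ the number of the 10 genes that passed, 6 in the fit reported, stayed within 1.5 times of that number. It was 4 to 6 when single libraries were left out and 7 without both shallow libraries. With array weights it was 8, with Fzd5 and Sfrp1 gained. Between mMZ and lMZ it was 4, 2 to 5 when single libraries were left out and 7 with array weights. Between VZ and mMZ it was 0, 0 to 2 when single libraries were left out, 1 with quantile normalization (Wnt8b) and 5 with array weights. For mMZ against the mean of VZ and lMZ it was 0, and 3 with array weights (Wnt7b, Fzd5 and Lef1). Over all tested genes the calls between VZ and lMZ numbered 2750, and 6800 with array weights, 940, 1008 and 1199 without lMZ replicates 1, 2 and 3, 1194 without VZ replicate 1 and 1684 when mMZ was kept out. The median of all genes was 0.05 there, and -0.06 with trimmed mean scaling. Between mMZ and lMZ the calls numbered 577, 501 higher and 76 lower, against 527 higher and 264 lower with quantile normalization. There were 3700 under array weights, 2027 when VZ was kept out, 1651 without both shallow libraries, 1767 and 891 without VZ replicates 3 and 2, and 202 to 294 without single mMZ or lMZ libraries. The VZ to mMZ comparison had 0 calls, 2761 with array weights, 566 without VZ replicate 2, 9 with quantile normalization and 4 with the 5 FPKM filter. For mMZ against the mean of VZ and lMZ there were 6, 560 with array weights, 12 without both shallow libraries and 0 to 30 without single libraries. The causes were not tested.

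No called difference changed sign. Of differences that had not passed, Wnt7a between VZ and lMZ was 0.32 with array weights, 0.53 without both shallow libraries and -0.54 to 0.53 without single libraries. Between VZ and mMZ, Fzd8 was -0.65 to 0.43, Sfrp1 -0.51 to 0.18 and Lef1 -0.13 to 0.21 without single libraries, and without both shallow libraries Sfrp1 was 0.29 and Lef1 -0.18. Between VZ and lMZ, Id2 was -0.0309 with quantile normalization, -0.0288 with trimmed mean scaling and -0.0238 to 0.30 without single libraries, Shisa2 was -0.0154 with array weights, and Tle1 was -0.26 to 0.0178 without single libraries. For mMZ against the mean of VZ and lMZ, Axin2 was 0.13 without both shallow libraries and Fzd8 was -0.0044 to 0.95 without single libraries.

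The replicate numbers were not treated as pairs in the main fit, because the labels name no pairing. Deviations were correlated above 0.1 in 4 of 9 same-numbered library pairs (range -0.0984 to 0.249, median 0.0909). For differently numbered pairs this held in 2 of 18 (range -0.247 to 0.231, median -0.0257). The highest same-numbered value was that of VZ replicate 3 and mMZ replicate 3, the 2 shallow libraries, where number and depth cannot be told apart. The highest differently numbered value was that of VZ replicate 2 and mMZ replicate 1. With the number as a replicate block, 5 of the 10 genes passed between VZ and lMZ (Axin2 was lost), 4 between mMZ and lMZ and 0 between VZ and mMZ, and of the other genes named Fzd3 was gained between VZ and lMZ. Depth limits low values in the 2 shallow libraries, where 1 fragment on a 2 kb transcript is worth 1.92 and 0.913 FPKM.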
